A study of Homo sapiens with 4 samples.

Results

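AMP-activated protein kinase (AMPK) is a complex of 1 catalytic alpha, 1 scaffolding beta and 1 nucleotide-binding gamma subunit, encoded by 7 genes in humans. It senses a rise in AMP and ADP relative to ATP through the gamma subunit, is switched on by phosphorylation of the alpha subunit, and then slows lipid and protein synthesis and favours catabolism. The beta subunit holds the complex together and binds glycogen. In colon cancer cells the pathway is known for linking nutrient shortage to growth control.

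The members were all probe sets that the authors' deposited table assigns to PRKAA1, PRKAA2, PRKAB1, PRKAB2, PRKAG1, PRKAG2 or PRKAG3. This gave 7 of 20245 genes and 22 of 42450 probe sets in that table, with 5 each for PRKAA1, PRKAA2 and PRKAG2, 3 for PRKAB2, 2 for PRKAB1 and 1 each for PRKAG1 and PRKAG3. The family was picked because PRKAB1 was higher on both plasmid arrays than on both single-stranded RNA arrays, so the members were chosen by values of that contrast, which is a description here and supports nothing.

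HCT116 is an established human colon cancer cell line. Cells of this line were transfected with the plasmid pcDNA3.1-pri-miR663a, which carries the primary transcript of the microRNA miR663a, or with the empty plasmid pcDNA3.1 as vector control. Others received a single-stranded inhibitor of miR663a or a single-stranded scrambled RNA. Total RNA of each of the 4 groups was hybridised to 1 Affymetrix expression array. The time after transfection was not given in the sources used here, and the level of mature miR663a was not analysed here, so no value checks the transfections. The perturbed microRNA is shown because both comparisons turn on it, with its seed (bases 2 to 8) in capitals, from RefSeq (GRCh38.p14, chr20:26208243-26208264, minus strand).
hsa-miR-663a: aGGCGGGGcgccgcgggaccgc

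With 1 array per group there is no spread between replicates for either comparison of the design, neither could be tested, and the number of arrays limits the precision. Plasmid against RNA, with 2 arrays per kind, was not tested because that contrast chose the members and the arrays of a kind carry different agents. Groups follow the source, description and genotype labels. The RNA arrays carry titles that contradict these labels, and if the titles were right each inhibitor ratio would turn its sign. The header of the authors' deposited table, which names inhibitor over control, runs the way of the labels used here: its log2 ratios equal the level differences taken by those labels within 9.83e-05. Levels were deposited as log2 values for 16381 probe sets, and their medians were 4.19 on the overexpression array, 4.12 on the vector array and 4.16 on each RNA array. Of 8 colon epithelial markers with levels, 7 lay above the array median on every array, among them EPCAM between 12.26 and 12.63. Of 6 leukocyte markers, 3 lay above the array median on the overexpression array, 2 on the vector array and 3 on each RNA array, with CD79A between 5.32 and 5.75 and the pan-leukocyte marker PTPRC between 2.04 and 2.34. Of 8 fibroblast and endothelial markers 4 lay above it with overexpression, 5 with vector, 4 with the inhibitor and 6 with scrambled RNA, among them COL1A1 between 7.48 and 8.05. Their part in the results was not tested.

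Levels were deposited for 5 of the 22 AMPK subunit probe sets: both of PRKAB1 and 1 each of PRKAB2, PRKAG1 and PRKAA1. The first 4 lay above the median of their array on all 4 arrays, while the PRKAA1 probe set lay below it on all 4. The other 17 probe sets, which include all those of PRKAA2, PRKAG2 and PRKAG3, had ratios only. For these the score column of the authors' deposited table, a sum of squared deviations over the 4 log2 values, gave the size of the plasmid-RNA difference without its direction.

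PRKAB1, the beta 1 subunit, was the family member with the widest separation between plasmid and RNA arrays. Its first probe set (listed at chr12:120105782-120119416, plus strand, build not given in the sources used here) was at 7.78 on the overexpression array, 7.80 on the vector array, 6.73 on the inhibitor array and 7.09 on the scrambled RNA array, on the log2 scale. The plasmid arrays were nearly equal and both lay above both RNA arrays, with the inhibitor array lowest. The mean level was 1.84-fold higher on the plasmid arrays than on the RNA arrays, and the gap from the lower plasmid array to the higher RNA array was 1.61-fold. The overexpression array exceeded the inhibitor array by 1.05, and the vector array exceeded the scrambled RNA array by 0.71, on the log2 scale.

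The second PRKAB1 probe set is listed within the same stretch (chr12:120105968-120118153). It was at 6.18 on the overexpression array, 5.80 on the vector array, 5.34 on the inhibitor array and 5.70 on the scrambled RNA array. The kinds of transfection again did not overlap and the inhibitor array was again lowest, but the gap was only 0.10 and rested on vector against scrambled RNA. Overexpression exceeded inhibitor by 0.84. The means differed 1.39-fold. The first probe set exceeded the second by 1.60 on the overexpression array and by 1.39 on each RNA array, and they parted most on the vector array. The overexpression array exceeded the vector array by 0.38 on the second, with a log2 ratio of -0.02 on the first. Both gave the same inhibitor difference, with log2 ratios of -0.36 over scrambled RNA.

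**Figure D1:**
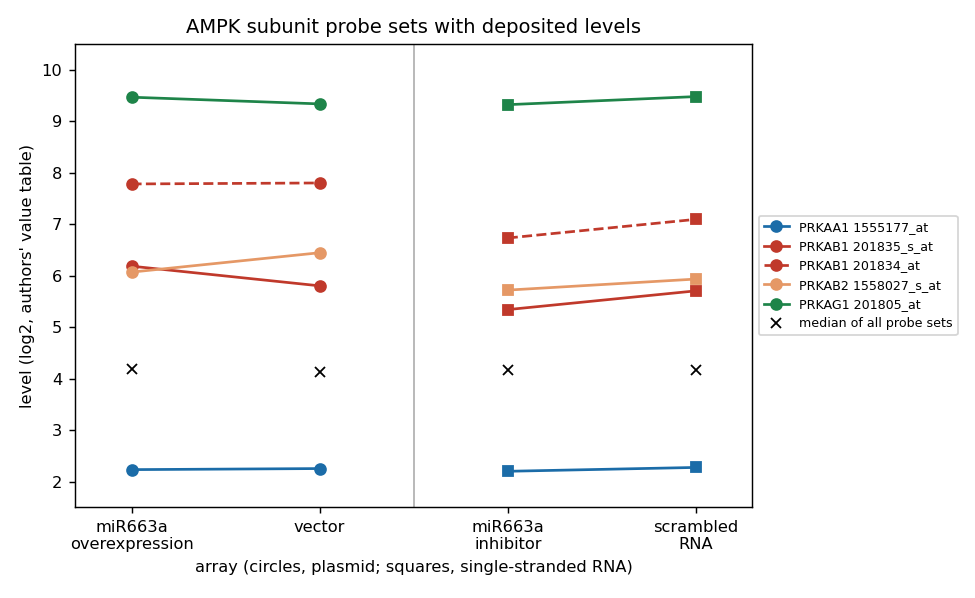
Log2 level (vertical axis) of the 5 AMPK subunit probe sets with deposited levels on each of the 4 arrays, with circles for plasmid and squares for single-stranded RNA transfections, lines joining the arrays of 1 comparison and crosses for the median of all probe sets. Both PRKAB1 probe sets and the PRKAB2 probe set sit higher on both plasmid arrays than on both RNA arrays, PRKAG1 stays between 9.32 and 9.48, and the PRKAA1 probe set lies below the crosses.

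PRKAB2, the beta 2 subunit and the alternative scaffold of the complex, showed the same order of kinds on its probe set with levels. The gap was smaller than that of the first PRKAB1 probe set. Its probe set with levels was at 6.07 on the overexpression array, 6.44 on the vector array, 5.72 on the inhibitor array and 5.93 on the scrambled RNA array. Both plasmid arrays lay above both RNA arrays by a gap of 0.13, against 0.10 on the second PRKAB1 probe set, and the means differed 1.35-fold. Of all probe sets above the array median, 19.7% had both plasmid arrays higher. The direction with overexpression was opposite to that of the second PRKAB1 probe set, with a log2 ratio of -0.38 over vector. The other PRKAB2 probe sets had plasmid and RNA arrays that did not overlap, as 36.9% of all probe sets in the authors' deposited table had. The size between the means was 0.52 on the one listed at chr1:146626684-146630761 and 0.35 on the one at chr1:146630911-146643723, with a direction that is not known.

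PRKAG1, the gamma 1 subunit that binds AMP and ATP, did not share this order. Its probe set was at 9.47 on the overexpression array, 9.34 on the vector array, 9.32 on the inhibitor array and 9.48 on the scrambled RNA array. The kinds overlapped fully and their means differed by 0.00. The range over all 4 arrays was smaller than the gap of the first PRKAB1 probe set.

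Only 1 of the 4 subunit probe sets counted, the first of PRKAB1, had a gap of at least 1.5-fold between the kinds of transfection. Among all probe sets above the array median, 23 of 8146 (0.282%) had such a gap with plasmid higher and 3 (0.0368%) with plasmid lower, and the PRKAB1 probe set ranked 11 by its size. Its gap was 0.69 on the log2 scale, against a threshold of 0.58, and the nearest member below the threshold was the PRKAB2 probe set at chr1:146626684-146630761, at 0.40. Without a size limit, 3 of the 4 counted probe sets had both plasmid arrays higher, where 19.7% of all counted probe sets did. Over all 22 probe sets, 11 had kinds that did not overlap in either direction, against 36.9% of the probe sets of the authors' deposited table. Since this contrast chose the family, nothing is read from these shares. Plasmid and RNA transfections differ in the reagent and in whatever else was done differently, and these cannot be told apart.

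**Figure D2:**
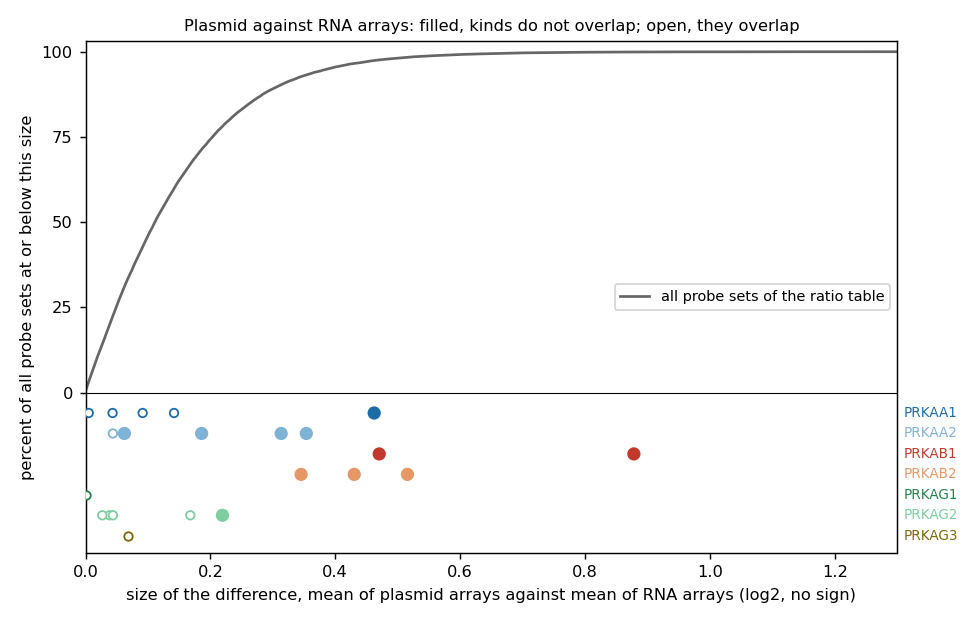
Size of the log2 difference between the mean of the plasmid arrays and the mean of the RNA arrays, without sign, for the 22 AMPK subunit probe sets (points below the line, by gene) and as a cumulative percentage of all 42450 probe sets (curve). Filled points have kinds of transfection that do not overlap, and the first PRKAB1 probe set lies farthest right at 0.88.

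The remaining alpha and gamma subunits separated the kinds less evenly. Of all probe sets in the authors' deposited table, 36.9% had kinds that did not overlap. The PRKAA1 probe set at chr5:40774651-40776147 had a size of 0.46 with kinds that did not overlap, while the other 4 PRKAA1 probe sets overlapped with sizes from 0.01 to 0.14. For PRKAA2, the alpha 2 catalytic subunit, 4 of 5 probe sets did not overlap, with the largest size between the means at 0.35. Their gaps were smaller, from 0.03 to 0.16 on the log2 scale, with a direction that is not known. PRKAG2, the gamma 2 subunit, had 1 of 5 that did not overlap, at 0.22, and the single PRKAG3 probe set, for the gamma 3 subunit known from skeletal muscle, overlapped at 0.07.

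In the profile over the 4 arrays, the genes nearest to the first PRKAB1 probe set were STC2, PLAU, ZNF202, TUFT1 and HSD17B12, by Euclidean distance of centred log2 values among 5391 genes. Distances were 0.23 for STC2, PLAU and ZNF202, 0.24 for TUFT1 and 0.25 for HSD17B12, and the median over all genes was 0.94. STC2, a secreted glycoprotein, was at 8.89 with overexpression, 8.97 with vector, 8.14 with the inhibitor and 8.32 with scrambled RNA. PLAU, the urokinase protease, was at 7.99 with overexpression, 8.03 with vector, 7.24 with the inhibitor and 7.43 with scrambled RNA. All 5 genes were higher on both plasmid arrays, which the choice of a near profile fixes.

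The promoters of the beta subunits are shown because both plasmid arrays were higher on both PRKAB1 probe sets and on 1 of 3 PRKAB2 probe sets. PRKAB1 was picked for this order, and the direction of the other PRKAB2 probe sets is not known. The promoters are 300-base windows from RefSeq (GRCh38.p14), from 250 bases before to 50 after the gene start, in the direction of transcription. They lie at chr12:119667883-119668182 on the plus strand for PRKAB1 and chr1:147172421-147172720 on the minus strand for PRKAB2. Capitals mark the GC box GGGCGG, searched on both strands.
PRKAB1 promoter: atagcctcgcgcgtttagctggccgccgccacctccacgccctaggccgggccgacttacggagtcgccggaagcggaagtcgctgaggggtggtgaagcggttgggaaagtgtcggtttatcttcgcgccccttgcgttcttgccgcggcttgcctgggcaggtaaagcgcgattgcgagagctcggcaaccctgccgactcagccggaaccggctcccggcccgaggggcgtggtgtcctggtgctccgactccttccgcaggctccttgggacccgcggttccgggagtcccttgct
PRKAB2 promoter: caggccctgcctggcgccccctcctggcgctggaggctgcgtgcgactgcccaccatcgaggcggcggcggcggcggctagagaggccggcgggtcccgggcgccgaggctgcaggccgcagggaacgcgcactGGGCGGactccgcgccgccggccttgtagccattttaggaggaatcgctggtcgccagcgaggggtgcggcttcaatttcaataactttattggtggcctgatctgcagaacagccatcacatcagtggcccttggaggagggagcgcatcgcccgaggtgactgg
The windows had 67.7% G and C for PRKAB1 and 68.7% for PRKAB2, against a median of 58.7% over 35116 promoter windows. The GC box was in the PRKAB2 window 1 time and in 45.0% of all windows, and these letters were not in the PRKAB1 window. The letters TGACGT of the cAMP response element (8.0% of windows) and the E-box CACGTG (7.3%) were in neither. The CCAAT box (CCAAT, 34.6%) was in the PRKAB2 window 1 time. A match is a description of the letters only.

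The comparison of miR663a overexpression with vector asked which transcripts change with more of the microRNA, in either direction. No AMPK subunit probe set above the array median differed by 1.5-fold (0 of 4), where 226 of 7939 probe sets (2.85%) did, 74 higher and 152 lower. With each array's median subtracted, that split was 39 higher and 258 lower. Over all 22 subunit probe sets in the authors' deposited table, 1 was at least 1.5-fold lower, against 1.76% of all probe sets, and 0 were at least 1.5-fold higher, against 1.77%. The median log2 ratio of the 22 was -0.11, against -0.02 over all probe sets, and 16 of the 22 lay below 0, against 52.6% of all.

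The probe set past the threshold was 1 of the 5 for PRKAA1, the alpha 1 catalytic subunit that phosphorylates the targets of the complex. It had a ratio of 0.603 in the authors' deposited table, which is 1.66-fold lower with overexpression, and ranked 252 from the lowest ratio of that table. With the inhibitor its ratio was 1.31. Its levels were not analysed here, but with either direction of the plasmid-RNA difference the overexpression array was lowest and the vector array highest. Whether the probe set is bright or dim is therefore not known.

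The other PRKAA1 probe sets gave smaller differences of the same sign with overexpression. In the authors' deposited table their ratios were 0.737, 0.788, 0.834 and 0.986. The probe set at 0.737 is listed on the same stretch as the one past the threshold (chr5:40759487-40761653, minus strand, build not given in the sources used here). Its ratio still differed from 0.603. The listing places the aligned transcript, and whether both probe sets bind the same sequence was not examined. The probe set at 0.986 is the dim one with levels, at 2.23 with overexpression, 2.25 with vector, 2.20 with the inhibitor and 2.27 with scrambled RNA.

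All 5 PRKAA1 probe sets thus lay below 0 with overexpression, and 4 of them also lay above 0 with the inhibitor, the directions that the study set out to select and that 28% of all probe sets had. With the titles' order, 1 of the 5 would have both directions, against 24.2% of all. Inhibitor ratios in the authors' deposited table were 1.31 for the probe set past the threshold, 1.01 for its neighbour on the same stretch, 1.11 and 1.10 for the next 2, and 0.949 for the dim one. None of these inhibitor differences reached 1.5-fold. Of 698 genes with 5 probe sets in that table, 11.3% had all 5 below 0 with overexpression, and 6.02% had 4 or 5 in both directions, or 2.58% with the titles' order. PRKAA1 was singled out here after its values were seen.

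**Figure D3:**
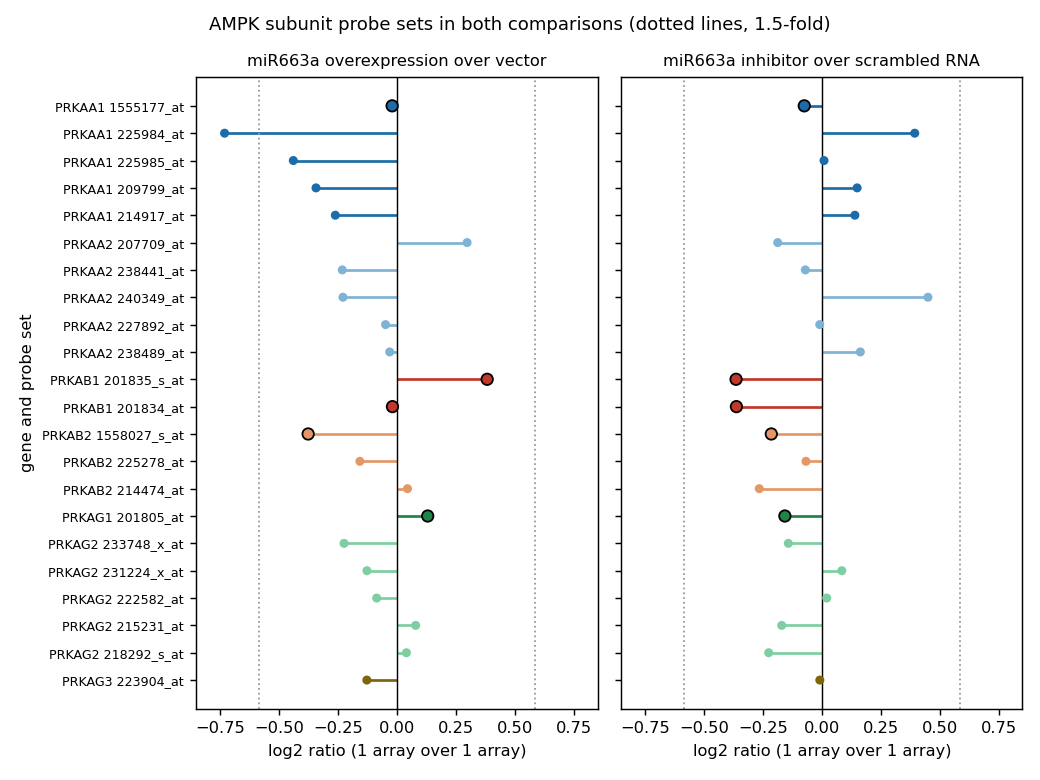
Log2 ratio (horizontal axes) of the 22 AMPK subunit probe sets with miR663a overexpression over vector (left) and miR663a inhibitor over scrambled RNA (right), by gene, with dotted lines at 1.5-fold and black rims for probe sets with deposited levels. PRKAA1 points lie left of 0 with overexpression, and 1 PRKAA1 point is the only one past a dotted line.

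PRKAA2 showed no common direction. Its overexpression log2 ratios ran from -0.23 to 0.30 with a median of -0.05, and its inhibitor log2 ratios from -0.19 to 0.45. The highest inhibitor ratio of the family in the authors' deposited table was 1.37, for a PRKAA2 probe set whose overexpression ratio was 0.853. With the titles' order that ratio would be the lowest of the family at 0.732, and the highest would be 1.29, for PRKAB1. The highest PRKAA2 overexpression ratio, 1.23, went with an inhibitor ratio of 0.878.

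Beta subunits lay below 0 with the inhibitor on all 5 of their probe sets, as 54.3% of all probe sets did. With the titles' order all 5 would lie above 0, against 44.6%. The comparison of inhibitor with scrambled RNA asked which transcripts change with inhibition of miR663a, in either direction. PRKAB1 was 1.29-fold lower with the inhibitor on each of its probe sets. In the authors' deposited table PRKAB2 was 1.16-fold lower on the probe set with levels, and 1.20-fold and 1.05-fold lower on the others. With overexpression the 5 were divided, with 2 above 0 and 3 below. The direction with the inhibitor was thus opposite to that of 4 of the 5 PRKAA1 probe sets.

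Gamma subunits stayed close to 1. PRKAG1 had an overexpression ratio of 1.09 and an inhibitor ratio of 0.897 in the authors' deposited table. The PRKAG2 overexpression log2 ratios ran from -0.22 to 0.08 and its inhibitor log2 ratios from -0.23 to 0.08. A single PRKAG2 probe set is listed on the plus strand while the other 4 are on the minus strand. PRKAG3 had ratios of 0.915 with overexpression and 0.994 with the inhibitor.

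No subunit probe set reached 1.5-fold with the inhibitor: 0 of 4 above the array median, where 78 of 7943 (0.982%) did, and 0 of 22 in the authors' deposited table, where 1.45% did. The median inhibitor log2 ratio of the 22 was -0.07, against -0.02 over all probe sets. On all 5 probe sets with levels the inhibitor array was the lowest of the 4, as it was for 27.7% of all probe sets above the array median. With the titles' order the inhibitor array would be lowest on 0 of the 5, against 17.5%. The family was picked for PRKAB1 being lower on both RNA arrays, which bears on this count. The PRKAA1 probe set is dim, while the shares cover only probe sets above the array median. Nothing is therefore read from these shares. For PRKAG1 the inhibitor array lay only 0.01 below the vector array.

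Other genes of the pathway were taken from lists, each gene represented by its brightest probe set on average over the 4 arrays. Of 37 genes of these lists above the array median, 1 lay past 1.5-fold with overexpression and 0 with the inhibitor, where 2.56% and 0.747% of all genes above the array median did. The gene was ACACB, acetyl-CoA carboxylase 2, a substrate whose phosphorylation by AMPK favours fatty acid oxidation. It was at 7.19 with overexpression, 6.60 with vector, 6.90 with the inhibitor and 6.72 with scrambled RNA, a log2 ratio of 0.59 over vector. With the mean of its probe sets with levels the log2 ratio was 0.45, under the threshold, which left 0 of the 37. The median over its 6 probe sets in the authors' deposited table was 0.19.

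Upstream of AMPK, 4 of 10 kinases and partners were counted, with a median log2 ratio of 0.05 with overexpression, against -0.05 over all genes, and 0.05 with the inhibitor, against -0.02. STK11, the main kinase that activates AMPK, was at 6.51 with overexpression, 6.41 with vector, 6.79 with the inhibitor and 6.63 with scrambled RNA. CAMKK1, a calcium-dependent kinase, was higher in both comparisons, by 0.24 and 0.20, while MAP3K7 had log2 ratios of -0.24 and -0.09 and TAB1 0.01 and -0.07. Over the 4 MAP3K7 probe sets the inhibitor log2 ratios ran from -0.19 to 0.20. Among regulators, 3 of 10 were counted, with medians of -0.15 and -0.24. FLCN, folliculin, which binds AMPK through FNIP1, had -0.20 with overexpression and 0.33 with the inhibitor. Over its 5 probe sets the log2 ratios ran from -0.20 to 0.04 with overexpression and from -0.14 to 0.33 with the inhibitor. FNIP1 had -0.15 and -0.24 and PPM1F, a phosphatase, 0.04 and -0.24. With the mean of the PPM1F probe sets with levels, the overexpression log2 ratio was -0.19.

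The AMPK-related kinases, most of which STK11 also activates, had medians of -0.07 with overexpression and 0.04 with the inhibitor over 7 counted genes of 13. NUAK1 had -0.29 and 0.09, and BRSK1 0.02 and 0.15. MARK2, a kinase of microtubule-binding proteins, was higher on both plasmid arrays by a gap of 0.23, with levels of 7.01 with overexpression, 7.04 with vector, 6.55 with the inhibitor and 6.78 with scrambled RNA. MARK3 and SIK3, the second named after its values were seen, also had both plasmid arrays higher, by 0.01 and 0.05. Together 3 of 7 lay so and 0 had both plasmid arrays lower, against 20.3% and 19.7% of all genes counted. Among substrates 1 of 11 had both plasmid arrays higher and 4 lower. The counts higher and lower were 1 and 1 of 4 for upstream kinases, 1 and 0 of 3 for regulators, 1 and 1 of 6 for mTORC1 and 0 and 1 of 6 for adenylate genes.

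AMPK substrates had medians of -0.11 with overexpression and 0.01 with the inhibitor over 11 counted genes of 23. PFKFB3, which makes the activator of glycolytic phosphofructokinase, had -0.34 and 0.28. TBC1D4, a regulator of glucose transporter traffic, had -0.36 and 0.11, and FOXO3, a transcription factor, had -0.13 and -0.28. Components and inputs of mTORC1, the growth complex that AMPK restrains, had medians of -0.11 and -0.07 over 6 counted genes of 18. RPS6KB1, the S6 kinase, had -0.47 and 0.27, MTOR itself -0.09 and -0.26, AKT1S1 -0.14 and -0.18, and RRAGA -0.30 and -0.06.

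Genes that set the adenylate balance had medians of 0.09 with overexpression and -0.11 with the inhibitor over 6 counted genes of 12. AK1, a cytosolic adenylate kinase, had 0.08 and -0.13, and AK4, a mitochondrial one, 0.10 and -0.16. ADK, which turns adenosine into AMP, had 0.12 and -0.08 on the probe set used.

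**Figure D4:**
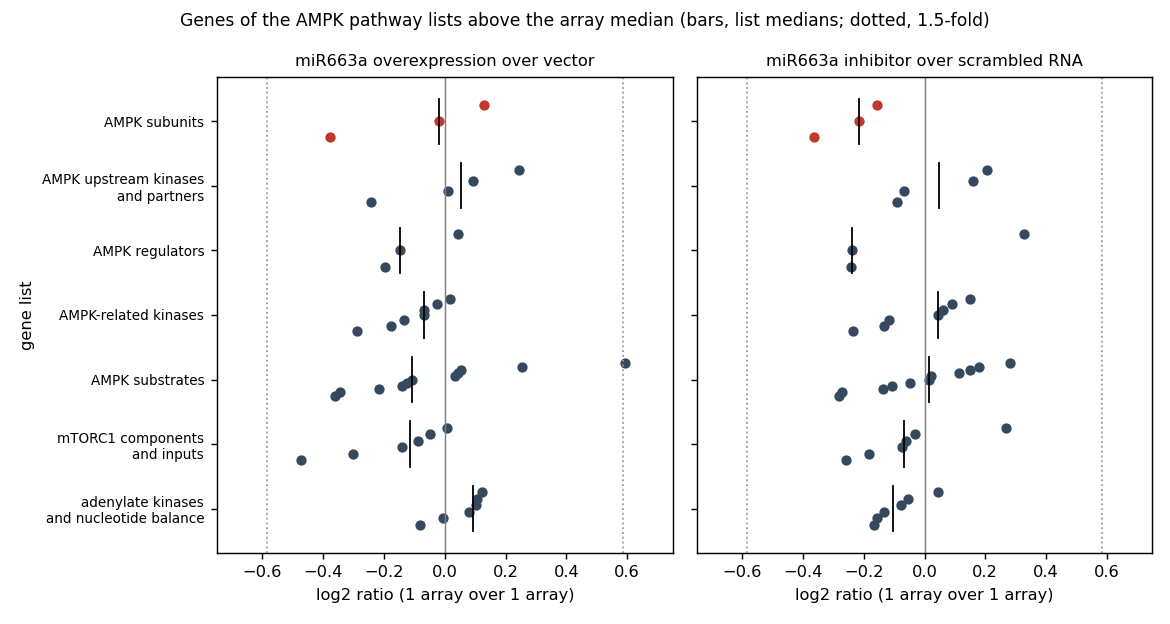
Log2 ratio (horizontal axes) of each gene above the array median in the AMPK subunit list (red) and 6 pathway lists (dark), with miR663a overexpression over vector (left) and inhibitor over scrambled RNA (right), bars for list medians and dotted lines at 1.5-fold. ACACB is the only gene at a dotted line, and list medians lie between -0.24 and 0.09.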

How the data were processed

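Expression was measured in 4 transfections of HCT116 cells, 1 array each. The log2 levels of 16381 probe sets were deposited by the authors. The submitters' processing notes name MAS5 without a version. How background was corrected and arrays were normalized was not given in the sources used here. The linear ratios and the score column of 42450 probe sets are the authors' deposited values, overexpression over vector and inhibitor over scrambled RNA per the file headers. For the 12704 shared probe sets the log2 of each ratio differed from the level difference by at most 9.87e-05, and the score from the sum of squares by at most 0.000107. The plasmid-RNA size derived from it was accurate to 0.00124.

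Members followed the table's gene symbols. Other genes were named through RefSeq accessions (GRCh38.p14, names only). A probe set was counted where it exceeded the array median on both arrays of a comparison; for plasmid against RNA, on both arrays of at least 1 kind. Calls were differences of at least 1.5-fold, with no test, since each group had 1 array. Named genes were all members, up to 4 per list by size of ratio, and the 5 nearest profiles; 1 of these genes is not reported here. Members and lists were chosen with earlier results of these data known. The calculation was tested on simulated data. Alternatives were centring, quantile normalization, filters, an offset of 64, a 2-fold threshold, the turned sign, the mean of a gene's probe sets and the ratio table. Python 3.11.15, numpy 2.4.6, pandas 2.3.3 and matplotlib 3.10.9 were used.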

Additional observations from a re-analysis of the deposited data

How the results depend on the processing

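The counts of subunit probe sets past 1.5-fold were 0 with overexpression, 0 with the inhibitor and 1 between plasmid and RNA arrays, and centring, quantile normalization, no filter and the filter on all 4 arrays left all 3 counts as they were. With the offset of 64 and with the 2-fold threshold the plasmid-RNA count was 0. In the authors' ratio table the overexpression count was 1, and the plasmid-RNA count, an alternative added after seeing the data, was 1. The turned sign left the inhibitor count at 0 and made both PRKAB1 inhibitor log2 ratios 0.36. With quantile normalization the first PRKAB1 probe set had an overexpression log2 ratio of 0.10 in place of -0.02. The offset brought its plasmid-RNA difference to 0.63 and that of the second to 0.22, with the direction kept. Over all probe sets, overexpression calls, 74 higher and 152 lower, were 322 and 219 with no filter, 4 higher and 29 lower with the offset, and 3 and 5 at 2-fold. Inhibitor calls, 56 higher and 22 lower, were 123 and 116 with no filter, 13 and 0 with the offset, and 1 and 0 at 2-fold. Plasmid-RNA calls were 4 higher and 0 lower with the offset, 5 and 0 at 2-fold, and 21 and 1 after centring. With the mean of a gene's probe sets with levels, some named genes turned sign. Overexpression log2 ratios became -0.19 for PPM1F and -0.29 for ADK. Inhibitor log2 ratios became 0.05 for MAP3K7, 0.06 for MARK3 and 0.42 for ADK. No paired analysis was possible because each group had 1 array. Dim probe sets and those without levels limit what can be said of PRKAA1, PRKAA2, PRKAG2 and PRKAG3.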

Other observations

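Some pathway probe sets outside the rule for named genes passed 1.5-fold in the authors' deposited table and were chosen after their values were seen. An ADK probe set had a ratio of 0.613 with overexpression and 1.90 with the inhibitor, opposite in sign to the ADK probe set used above. A CAMKK2 probe set, for the other calcium-dependent kinase of AMPK, had 1.60 and 0.674. A STRADA probe set, for a partner of STK11, had 1.56 and 0.826 and lay below the median on all 4 arrays. An SREBF1 probe set, for a regulator of lipid synthesis that AMPK phosphorylates, had 0.757 and 1.58. The brighter SREBF1 probe set went the other way each time, by 0.05 with overexpression and -0.11 with the inhibitor on the log2 scale. Single probe sets had 0.661 and 0.798 for MTOR, 0.651 and 0.835 for PPM1F, and 0.975 and 0.664 for PPM1E, the last below the median on all 4 arrays. With overexpression the PPM1F probe set was opposite in sign to the one used above.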
